A study of Homo sapiens with 9 samples.

Results

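A group of 10 genes of cell death control, among the 55527 genomic intervals measured, was followed through knockdown of CTDP1 in MDA-MB-231 cells, a human breast cancer line that lacks hormone receptors and HER2 amplification. The genes were the BCL2-family guardians BCL2, BCL2L1 and MCL1, the BH3-only genes BCL2L11, BBC3 and PMAIP1, the effectors BAX and BAK1, and the IAP-family genes BIRC5 and BIRC3. The deposited intervals carry no gene names, so each gene was taken as the hg19 interval with the highest overlap over union with its known span, which was 0.952 to 0.999 for the 10 genes. The cells carried shCTDP1-#1 or shCTDP1-#2, which are lentiviral short hairpins against CTDP1, or the scrambled hairpin shScr. Each of the 3 groups had 3 libraries of total RNA. All groups, shScr included, were infected with virus and selected with puromycin, and no uninfected cells are among the groups. CTDP1 encodes FCP1, a phosphatase that acts on the tail of RNA polymerase II. The labels do not state whether replicate libraries stem from independent cultures, so the p-values cover only library-to-library spread, possibly technical.

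Apoptosis through the mitochondria is decided among proteins of the BCL2 family. The guardians hold BAX and BAK1 in check, the BH3-only proteins bind the guardians or activate BAX and BAK1, and the active effectors open the outer mitochondrial membrane and release cytochrome c, which leads to caspase activation. IAP proteins share the BIR domain, but their roles differ. BIRC3 is a ubiquitin ligase of TNF receptor and NF-kB signalling, and BIRC5, known as survivin, is best known as a subunit of the chromosomal passenger complex in mitosis. Many of these proteins are controlled by turnover and binding, which RNA levels do not show.

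The targeted gene was lower in every knockdown library. CTDP1 stood at 2.46, 2.62 and 2.46 TPM (a length-scaled transcript share with a fixed total) with shCTDP1-#1 and at 3.77, 3.42 and 4.10 TPM with shCTDP1-#2, against 13.06, 12.38 and 12.01 TPM with shScr. The log2 change was -1.94 ± 0.10 (SE) with shCTDP1-#1 and -1.50 ± 0.10 with shCTDP1-#2. CTDP1 was 0.44 higher on the log2 scale with shCTDP1-#2 than with shCTDP1-#1 (limma, adjusted p = 0.0036), so the hairpins also differed in how far their target fell. Markers fixed for the line were present, with a lowest group mean of 1480 TPM for VIM, 738 TPM for CD44 and 45.7 TPM for EGFR, while ESR1, PGR and CDH1 were at most 1.08 TPM in any library. ERBB2 averaged 14.2 to 26.6 TPM by group. The sequencing depth is unknown because TPM values do not carry it, and no counting interval is given. The libraries listed 21714 to 22636 intervals above 0 with the CTDP1 hairpins, against 19688 to 20208 with shScr. The first shScr library had 4.47% of its TPM on mitochondrial genes, against 1.12% to 2.28% in the others, and the part of this in the results was not tested beyond leaving that library out.

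All 10 genes passed the filter of at least 1 TPM in at least 3 libraries and were tested within a fit of 15011 intervals. A gene is called where its limma adjusted p is under 0.05, and log2 changes are on the log2(TPM + 1) scale. With shCTDP1-#1, 5 genes rose and 4 fell relative to shScr, so that 9 of 10 were called. Of all tested intervals 63.1% were called, 35.4% as higher and 27.7% as lower. With shCTDP1-#2, 6 rose and 1 fell, so that 7 of 10 were called. Of all tested intervals 64.0% were called, 39.5% as higher and 24.6% as lower. The share called with shCTDP1-#2 is near that of all intervals, so nothing is read from the counts, and the account below is of which genes moved and by how much. Under upper-quartile or median-of-ratios scaling, 4 rose and 2 fell with shCTDP1-#2. Without the first shScr library, 5 rose and 4 fell with shCTDP1-#1, and 5 rose and 1 fell with shCTDP1-#2. The median log2 change of the 10 genes was 0.23 with shCTDP1-#1, beside 0.07 over all tested intervals, and 0.16 with shCTDP1-#2, beside 0.13. Under median-of-ratios scaling the median of the 10 genes was 0.16 with shCTDP1-#1 and 0.015 with shCTDP1-#2, and under upper-quartile scaling it was 0.23 and 0.091. With the 0.13 subtracted, the changes with shCTDP1-#2 were 0.75 for BCL2L11, 0.76 for BBC3, 0.87 for PMAIP1, 0.23 for BCL2L1 and -0.73 for BIRC5. Changes of at least 2-fold on the log2(TPM + 1) scale were fewer, with 3 of the 10 genes for shCTDP1-#1, where 11.4% of intervals passed, and 0 of the 10 for shCTDP1-#2, where 10.8% passed. PMAIP1 with shCTDP1-#2 lay at the limit, with a log2 change of 0.999 and a ratio of mean TPM of 2.01. The 3 libraries of a hairpin lay wholly above or below the 3 shScr libraries for 9 of the 10 genes with shCTDP1-#1, where 67.8% of intervals did, and for 7 with shCTDP1-#2, where 67.9% did. Both comparisons share the shScr libraries. In bulk RNA, a change in the share of cells that express a gene and a change in RNA per cell cannot be told apart.

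**Figure D1:**
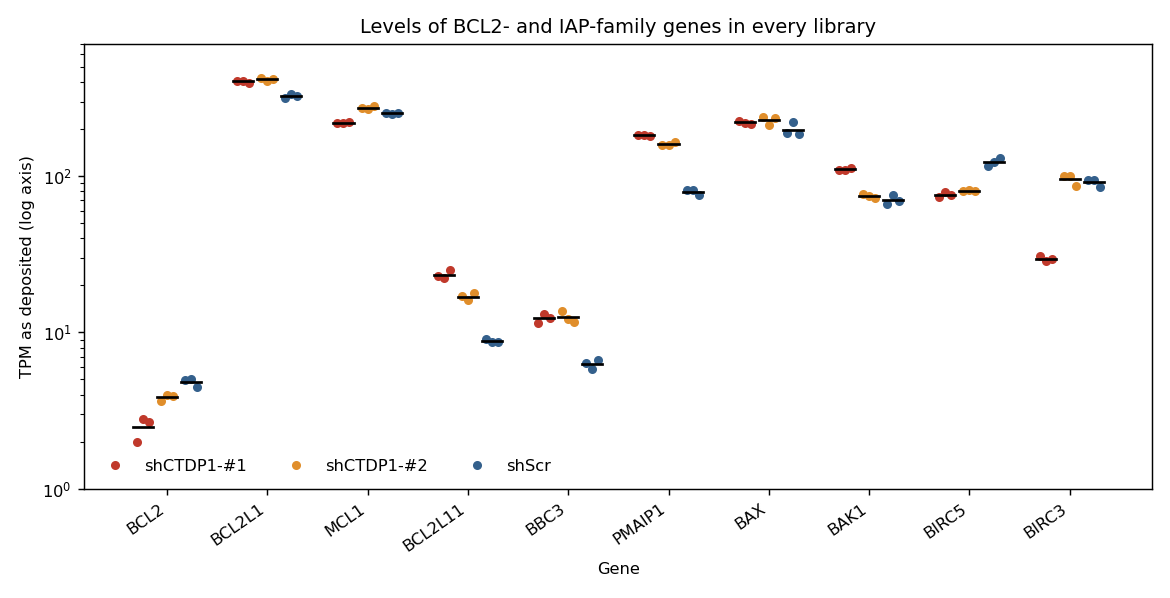
TPM on a log axis for each of the 10 genes, with 1 point per library and a black bar at the mean of 3 libraries, for shCTDP1-#1, shCTDP1-#2 and shScr from left to right. The 3 BH3-only genes sit above shScr in all knockdown libraries, and BIRC3 sits apart in the shCTDP1-#1 libraries alone, at 28.58 to 30.91 TPM.

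The 3 BH3-only genes among the 10 rose with either hairpin. Their levels with shCTDP1-#1 and shCTDP1-#2 did not reach down to shScr in any library. With shCTDP1-#1 the largest ratio to shScr among the 10 genes was that of BCL2L11, which encodes BIM, a BH3-only protein able to bind all the guardians. BCL2L11 (chr2:111876955-111926024 on hg19) had 22.80, 22.21 and 25.23 TPM with shCTDP1-#1 and 17.00, 16.02 and 17.87 TPM with shCTDP1-#2, against 9.04, 8.63 and 8.62 TPM with shScr. The 3 groups did not overlap, with shCTDP1-#1 highest and shScr lowest. The ratio of mean TPM to shScr was 2.67 with shCTDP1-#1, where the log2 change was 1.32 ± 0.07 (SE, limma adjusted p = 1.3e-07), and 1.94 with shCTDP1-#2, where it was 0.88 ± 0.07 (adjusted p = 2.6e-06).

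PMAIP1, which encodes NOXA, a BH3-only protein that binds mainly MCL1, lies at chr18:57567180-57571538. It had 184.34, 183.61 and 180.88 TPM with shCTDP1-#1 and 157.35, 157.22 and 164.23 TPM with shCTDP1-#2, against 81.77, 81.09 and 75.28 TPM with shScr. Libraries of a group were close together and the 3 groups did not overlap. The rise in log2 was 1.20 ± 0.04 with shCTDP1-#1 (SE, limma adjusted p = 4.7e-09) and 1.00 ± 0.04 with shCTDP1-#2 (adjusted p = 1.9e-08). PMAIP1 was the most abundant of the 3 BH3-only genes in every group. Its mean level lay between those of MCL1 and BAK1 in every group, and with shScr its libraries overlapped those of BAK1.

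BBC3, which encodes PUMA, a BH3-only protein that binds all the guardians, lies at chr19:47724081-47736023. It had 11.55, 13.19 and 12.33 TPM with shCTDP1-#1 and 13.78, 12.17 and 11.73 TPM with shCTDP1-#2, against 6.39, 5.81 and 6.69 TPM with shScr. All knockdown libraries were above all shScr libraries, and those of both hairpins overlapped each other. Its log2 change was 0.87 ± 0.09 with shCTDP1-#1 (SE, limma adjusted p = 1.3e-05) and 0.89 ± 0.09 with shCTDP1-#2 (adjusted p = 1.1e-05). The ratio of mean TPM to shScr was 1.96 with shCTDP1-#1 and 1.99 with shCTDP1-#2.

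Of the 10 genes, 8 have a promoter in the RefSeq table of GRCh38.p14, and the 250 bases before the start were searched on both strands for 4 motifs. These were TGACGT, the core of the element bound by CREB and ATF factors, GTAAACA, a forkhead box element, CACGTG, an E-box, and the consensus of the NF-kB binding site. The promoters of BCL2L11 and PMAIP1 are shown as 2 examples among the 3 BH3-only genes of the 10, which rose with either hairpin. The pairs of gene and motif shown were picked by hand, and the BBC3 and BAX windows, which hold CACGTG, are not shown. Whether any factor acts through these motifs was not tested. The match is in capitals. Positions give the first base of the match before the start.
BCL2L11 (chr2:111120664-111120913, plus strand, GTAAACA 223 bases before the start): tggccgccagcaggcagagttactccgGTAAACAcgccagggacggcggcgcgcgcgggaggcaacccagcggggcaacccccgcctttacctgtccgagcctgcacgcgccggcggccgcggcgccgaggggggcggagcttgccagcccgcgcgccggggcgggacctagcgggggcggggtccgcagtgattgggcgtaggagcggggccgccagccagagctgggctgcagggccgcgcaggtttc
PMAIP1 (chr18:59899746-59899995, plus strand, TGACGT on the minus strand and read here as ACGTCA, 56 bases before the start): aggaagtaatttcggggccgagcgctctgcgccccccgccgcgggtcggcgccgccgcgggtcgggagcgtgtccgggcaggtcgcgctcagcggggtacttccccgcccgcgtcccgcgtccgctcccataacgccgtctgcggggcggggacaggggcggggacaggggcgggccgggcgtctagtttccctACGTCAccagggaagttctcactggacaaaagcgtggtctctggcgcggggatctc
GTAAACA occurs in 2.98% and TGACGT in 7.1% of the 35116 promoter windows of the same length in the table. CACGTG, present in 6.34% of windows, occurs 4 times in the BAX window and once in that of BBC3. Among the promoters matched, the forkhead box element was found in the BCL2L11 window only. The core of the CREB and ATF element was found in the PMAIP1 window only. The BBC3 window held neither, although BBC3 also rose with either hairpin. None of the motifs searched was shared between the windows of the BH3-only genes. A match is a description of these letters and not a binding site.

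The guardians moved in different directions. BCL2L1 rose with either hairpin, BCL2 fell with shCTDP1-#1, and MCL1 fell with shCTDP1-#1. BCL2L1, which encodes BCL-XL, lies at chr20:30252255-30311792 and was the most abundant of the 10 genes in every group. It had 406.92, 405.31 and 396.87 TPM with shCTDP1-#1 and 424.38, 407.41 and 417.69 TPM with shCTDP1-#2, against 314.55, 335.06 and 323.73 TPM with shScr. Both knockdown groups were above shScr without overlap, by 0.31 ± 0.03 on the log2 scale with shCTDP1-#1 (SE, limma adjusted p = 1.4e-05) and by 0.36 ± 0.03 with shCTDP1-#2 (adjusted p = 5.2e-06). The interval sums all transcripts, so the long form, which protects cells, and the short form, which does the opposite, cannot be told apart. Another interval inside the gene, chr20:30274019-30304628, covers 51.4% of it and was listed at 0 to 0.56 TPM. Which of these received shared reads cannot be seen, so the level of BCL2L1 is uncertain to that extent.

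MCL1, a guardian whose protein is known for its rapid turnover, lies at chr1:150547032-150552066. It had 218.64, 217.14 and 220.96 TPM with shCTDP1-#1 and 272.20, 269.98 and 280.61 TPM with shCTDP1-#2, against 253.04, 251.31 and 253.87 TPM with shScr. The groups did not overlap, with shCTDP1-#1 below shScr and shCTDP1-#2 above it. Relative to shScr the log2 change was -0.21 ± 0.03 with shCTDP1-#1 (SE, limma adjusted p = 1.3e-04). With shCTDP1-#2 it was 0.12 ± 0.03 in the deposited TPM (adjusted p = 0.0052), was not called at 0.044 under upper-quartile scaling, and was -0.032 under median-of-ratios scaling (adjusted p = 0.40). The direction of MCL1 with shCTDP1-#2 thus depends on the scaling. Its median-centred change, the change minus the median of 0.13 over all tested intervals, was -0.02.

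BCL2, the founding member of the family, spans 196783 bases at chr18:60790579-60987361 and had the lowest level of the 10 genes in every group. It had 1.99, 2.78 and 2.67 TPM with shCTDP1-#1 and 3.64, 3.99 and 3.91 TPM with shCTDP1-#2, against 4.97, 5.03 and 4.48 TPM with shScr. The 3 groups did not overlap, with shCTDP1-#1 lowest. The log2 change was -0.75 ± 0.12 with shCTDP1-#1 (SE, limma adjusted p = 3.4e-04), where the ratio of mean TPM was 0.514. With shCTDP1-#2 it was -0.27, with a 95% interval of -0.54 to 0.01, and was not called (adjusted p = 0.082). Under upper-quartile and median-of-ratios scaling it was called, at -0.32 (adjusted p = 0.037) and -0.39 (adjusted p = 0.016).

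The effectors split, since BAK1 rose with shCTDP1-#1 and the libraries of BAX overlapped between groups. BAK1, at chr6:33540329-33548019, had 109.72, 109.21 and 113.35 TPM with shCTDP1-#1 and 76.88, 74.24 and 72.75 TPM with shCTDP1-#2, against 66.19, 75.31 and 68.93 TPM with shScr. The shCTDP1-#1 libraries stood above all others, and those of shCTDP1-#2 and shScr overlapped. The log2 change was 0.65 ± 0.05 with shCTDP1-#1 (SE, limma adjusted p = 1.5e-06), and 0.09 with a 95% interval of -0.02 to 0.20 with shCTDP1-#2 (adjusted p = 0.15). Without the second shScr library the value with shCTDP1-#2 was 0.14 and was called (adjusted p = 0.026).

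BAX, at chr19:49458072-49465055, had 226.54, 219.78 and 215.77 TPM with shCTDP1-#1 and 239.31, 213.80 and 235.59 TPM with shCTDP1-#2, against 189.43, 220.47 and 185.74 TPM with shScr. The groups overlapped through the second shScr library, which stood higher than the other two. The log2 change was 0.16 with shCTDP1-#1, with a 95% interval of 0.01 to 0.30 (limma adjusted p = 0.060). With shCTDP1-#2 it was 0.21 ± 0.07 (SE, adjusted p = 0.016). The call with shCTDP1-#2 was lost under upper-quartile scaling at 0.14 and median-of-ratios scaling at 0.062. It was also lost without the first shScr library at 0.18, without the third at 0.17, and without the first or the third shCTDP1-#2 library at 0.18 and 0.19. With shCTDP1-#1, BAX was called without the second shScr library at 0.23 (adjusted p = 0.0036).

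The IAP-family genes did not move together, since BIRC5 fell with either hairpin, and BIRC3 fell with shCTDP1-#1 only. BIRC5, at chr17:76210267-76221717, had 73.56, 79.05 and 75.23 TPM with shCTDP1-#1 and 80.71, 81.57 and 79.92 TPM with shCTDP1-#2, against 115.21, 122.33 and 130.58 TPM with shScr. All knockdown libraries were below all shScr libraries. Its log2 change was -0.68 ± 0.05 with shCTDP1-#1 (SE, limma adjusted p = 9.6e-07) and -0.60 ± 0.05 with shCTDP1-#2 (adjusted p = 2.8e-06). A second interval inside the gene, chr17:76210462-76220740, covers 89.8% of it and was listed at 0 to 0.40 TPM. Which interval received shared reads cannot be seen in the files, so the level of BIRC5 is uncertain to that extent.

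BIRC3, which encodes cIAP2 and is a known NF-kB target, lies at chr11:102188215-102210134, 7807 bases from its neighbour BIRC2, which encodes cIAP1. It had 30.91, 28.58 and 29.45 TPM with shCTDP1-#1 and 100.72, 99.71 and 86.45 TPM with shCTDP1-#2, against 94.50, 94.26 and 84.81 TPM with shScr. The shCTDP1-#1 libraries were far below all others, and those of shCTDP1-#2 and shScr overlapped. The log2 change was -1.59 ± 0.07 with shCTDP1-#1 (SE, limma adjusted p = 2.3e-08), where the ratio of mean TPM was 0.325. With shCTDP1-#2 it was 0.07, with a 95% interval of -0.09 to 0.22 (adjusted p = 0.42). The BIRC3 promoter is shown because BIRC3 was the gene on which the hairpins differed most, and it holds 2 matches to the NF-kB consensus on the minus strand, in capitals, 199 and 135 bases before the start. The consensus occurs in 5.21% of the promoter windows and in none of the other promoters matched.
BIRC3 (chr11:102317234-102317483 on GRCh38.p14, plus strand): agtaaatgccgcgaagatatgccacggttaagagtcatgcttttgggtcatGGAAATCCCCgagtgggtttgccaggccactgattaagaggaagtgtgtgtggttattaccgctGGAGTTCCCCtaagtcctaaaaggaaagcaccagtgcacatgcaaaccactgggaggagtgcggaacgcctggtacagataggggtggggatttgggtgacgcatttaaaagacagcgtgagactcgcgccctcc

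**Figure D2:**
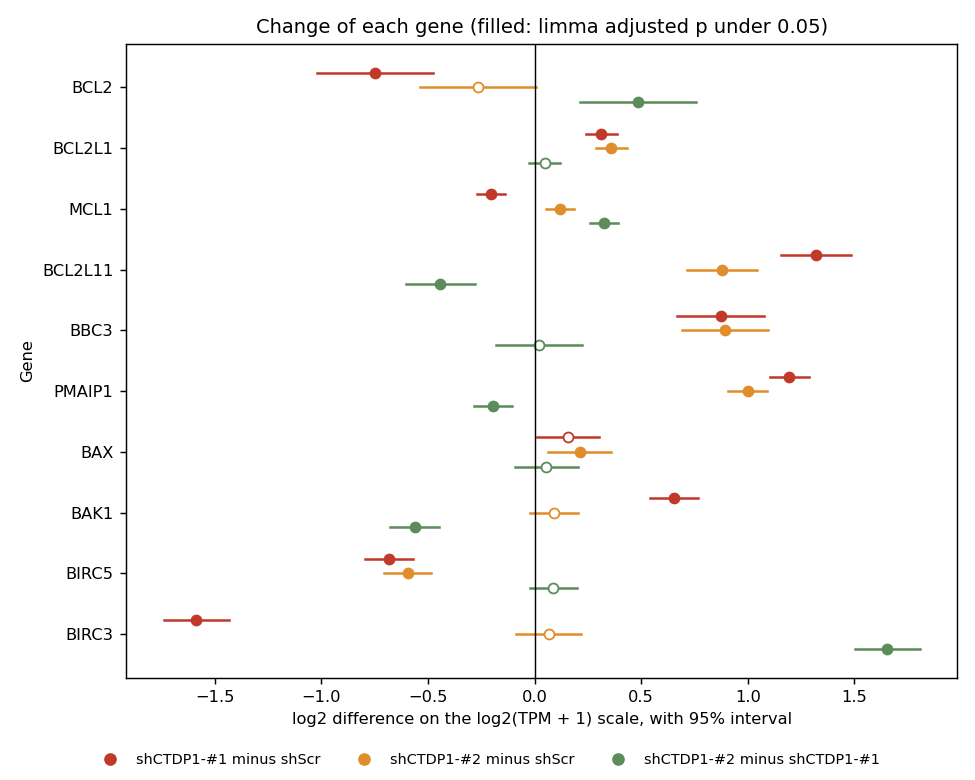
log2 difference of each of the 10 genes with its 95% interval, for shCTDP1-#1 minus shScr, shCTDP1-#2 minus shScr and shCTDP1-#2 minus shCTDP1-#1. Filled points have a limma adjusted p under 0.05. BIRC3 and BAK1 are filled for shCTDP1-#1 and open for shCTDP1-#2, and MCL1 is filled on opposite sides of 0.

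The difference between the hairpins was itself tested. With shCTDP1-#2 relative to shCTDP1-#1, 3 genes were higher and 3 lower, so that 6 of 10 were called, beside 50.2% of all tested intervals, 30.2% as higher and 20.0% as lower. BIRC3 was 1.65 ± 0.07 higher on the log2 scale with shCTDP1-#2 (SE, limma adjusted p = 4.7e-08), which is a ratio of mean TPM of 3.23 and larger in size than 99.5% of the tested intervals. It was the 1 gene of the 10 with a difference of at least 2-fold, which 3.89% of intervals passed. The libraries of both hairpins did not overlap for 8 of the 10 genes, as for 58.0% of intervals. BCL2 was 0.48 ± 0.12 higher (adjusted p = 0.0074) and MCL1 0.32 ± 0.03 higher (adjusted p = 8.9e-06). BAK1 was lower with shCTDP1-#2, at -0.56 ± 0.05 (adjusted p = 8.8e-06), as were BCL2L11 at -0.44 ± 0.07 (adjusted p = 5.8e-04) and PMAIP1 at -0.20 ± 0.04 (adjusted p = 0.0023). The other 4 genes were not called. Their differences were 0.02 for BBC3, with a 95% interval of -0.18 to 0.22, 0.05 for BCL2L1, with an interval of -0.03 to 0.12, 0.06 for BAX, with an interval of -0.09 to 0.20, and 0.09 for BIRC5, with an interval of -0.02 to 0.20. The CTDP1 level differed between the hairpins too, and whether the differences among the 10 genes follow it was not tested.

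Ratios of gene pairs within a library do not depend on its scaling. The ratio of PMAIP1 to MCL1, a BH3-only gene over the guardian its protein prefers, was 0.843, 0.846 and 0.819 with shCTDP1-#1 and 0.578, 0.582 and 0.585 with shCTDP1-#2, against 0.323, 0.323 and 0.297 with shScr. The groups did not overlap in either comparison with shScr. On the log2 scale the mean ratio was -0.26 ± 0.03 with shCTDP1-#1 and -0.78 ± 0.01 with shCTDP1-#2, against -1.67 ± 0.07 with shScr (SD, n = 3 each). By an exact two-sided permutation test each comparison had p = 0.1, the smallest that 3 against 3 libraries allow.

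The ratio of BAX to BCL2L1 was lower with the hairpins, at a log2 mean of -0.87 ± 0.02 with shCTDP1-#1 and -0.86 ± 0.06 with shCTDP1-#2, against -0.71 ± 0.10 with shScr (SD, n = 3 each). The groups did not overlap with shScr, by a small margin, and the exact two-sided permutation p was again 0.1 against shScr and 0.8 between the hairpins. The ratio of BIRC3 to its neighbour BIRC2 was 0.261, 0.249 and 0.259 with shCTDP1-#1 and 0.659, 0.631 and 0.567 with shCTDP1-#2, against 0.954, 0.912 and 0.846 with shScr. This ratio was lower than with shScr in all knockdown libraries (exact two-sided permutation p = 0.1 for each hairpin), while the BIRC3 level alone was lower only with shCTDP1-#1. The log2 change of BIRC2 was 0.19 with shCTDP1-#1 and 0.61 with shCTDP1-#2.

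**Figure D3:**
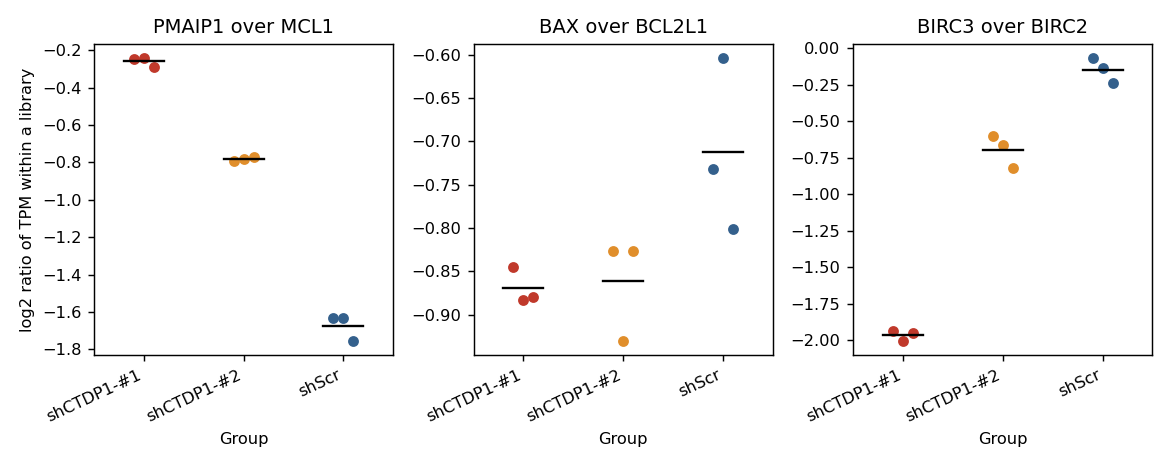
log2 ratio of TPM within each library for PMAIP1 over MCL1, BAX over BCL2L1 and BIRC3 over BIRC2, with 1 point per library and a bar at the group mean. PMAIP1 over MCL1 is higher in the shCTDP1-#1 and shCTDP1-#2 libraries than in shScr, and BIRC3 over BIRC2 is lowest with shCTDP1-#1.

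The order of the 10 genes by level, in TPM, which is per length, changed in its middle. BCL2L1 led, and BCL2L11, BBC3 and BCL2 closed the order, in that sequence, in each of the 3 groups. With shCTDP1-#1 the order between them was BAX, MCL1, PMAIP1, BAK1, BIRC5 and BIRC3, where BAX and MCL1 overlapped. With shCTDP1-#2 it was MCL1, BAX, PMAIP1, BIRC3, BIRC5 and BAK1, with no neighbours overlapping. With shScr it was MCL1, BAX, BIRC5, BIRC3, PMAIP1 and BAK1, where PMAIP1 and BAK1 overlapped.

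For each of the 10 genes, the gene closest in pattern was sought among 77 others by the root mean square difference of log2 change over the 6 knockdown libraries. These were the other tested genes of the 10, the lists below, CTDP1 and the markers, not all 15011 intervals. The measure is also small for any pair of genes that both changed little, and shared regulation was not tested. BCL2L11 was closest to PMAIP1, at 0.14. MCL1 was closest to TRAF2, a TNF receptor adaptor, at 0.05, BIRC5 to AURKB, the kinase of the passenger complex, at 0.07, and BCL2L1 to DIABLO, the IAP antagonist SMAC, at 0.09. BAX was closest to ATF4 at 0.09, BAK1 to BCL2L12 at 0.10, BBC3 to BIRC6 at 0.19, and PMAIP1 to the BH3-only gene BMF at 0.14. BCL2 had no match closer than BIRC5 at 0.25. BIRC3 had none closer than VIM, at 0.65.

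The counts of surrounding genes that follow stand beside 35.4% of all tested intervals higher and 27.7% lower with shCTDP1-#1, and 39.5% higher and 24.6% lower with shCTDP1-#2, and nothing particular to a list is read from them. Among 9 other tested genes of the BCL2 family, 5 rose and 2 fell with shCTDP1-#1, and 3 rose and 1 fell with shCTDP1-#2. The median log2 change was 0.27 with shCTDP1-#1 and 0.07 with shCTDP1-#2, the last being -0.08 under median-of-ratios scaling. BIK, another BH3-only gene, averaged 19.1 ± 2.3 TPM with shCTDP1-#1 and 25.6 ± 1.1 TPM with shCTDP1-#2, against 5.45 ± 0.87 TPM with shScr (SD, n = 3 each). Its log2 change was 1.64 with shCTDP1-#1 and 2.05 with shCTDP1-#2. BMF, which senses cytoskeletal stress, rose by 1.13 with shCTDP1-#1 and 0.94 with shCTDP1-#2. BCL2A1, a guardian and NF-kB target, fell to 13.0 ± 0.9 TPM with shCTDP1-#1 and 13.8 ± 0.5 TPM with shCTDP1-#2, against 33.4 ± 4.4 TPM with shScr (SD, n = 3 each), at log2 changes of -1.29 and -1.20. BNIP3, a mitophagy receptor, rose by 0.27 with shCTDP1-#1 and 0.50 with shCTDP1-#2. Not all BH3-only genes rose. BID, named after its values were seen, fell by 0.22 with shCTDP1-#1 and was not called at -0.01 with shCTDP1-#2. BAD, also a BH3-only gene, was not called at -0.08 with shCTDP1-#1 and -0.00 with shCTDP1-#2. Without the first shScr library BAD was called at -0.16 with shCTDP1-#1. It shares 98.4% of its interval with another expressed interval, so its value is uncertain. BCL2L10 and HRK were too low to test, and BCL2L2 was not analysed here.

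Of the other IAP genes and IAP antagonists, 4 of 5 tested rose and 1 fell with shCTDP1-#1, and 5 of 5 rose with shCTDP1-#2. The median was 0.30 with shCTDP1-#1 and 0.61 with shCTDP1-#2. BIRC2 averaged 116 ± 2.3 TPM with shCTDP1-#1 and 154 ± 3.0 TPM with shCTDP1-#2, against 101 ± 2.3 TPM with shScr (SD, n = 3 each). BIRC6, a large ubiquitin ligase, rose by 0.77 with shCTDP1-#1 and 0.85 with shCTDP1-#2. The antagonists DIABLO and HTRA2, which are released from mitochondria, rose by 0.30 and 0.56 with shCTDP1-#1 and by 0.47 and 0.37 with shCTDP1-#2. XIAP, the direct caspase inhibitor, is named after its values were seen. It averaged 25.1 ± 0.6 TPM with shCTDP1-#1 and 50.5 ± 3.5 TPM with shCTDP1-#2, against 28.7 ± 1.7 TPM with shScr (SD, n = 3 each), a fall of 0.18 and a rise of 0.79 on the log2 scale. BIRC7 was listed at 0 in all libraries.

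Of 7 tested genes of the caspases and the apoptosome, 3 rose and 1 fell with shCTDP1-#1, and 2 rose and 1 fell with shCTDP1-#2. Without the first shScr library, and under upper-quartile or median-of-ratios scaling, 2 rose with shCTDP1-#1 and 1 with shCTDP1-#2. Without that library none fell with shCTDP1-#1, and under median-of-ratios scaling 2 fell. The median was 0.05 with shCTDP1-#1 and 0.12 with shCTDP1-#2, and both were -0.03 under median-of-ratios scaling. The initiator CASP8 rose by 0.57 with shCTDP1-#1 and 0.66 with shCTDP1-#2. CASP6, CASP10 and APAF1 are named after their values were seen. CASP6 fell by 0.84 with shCTDP1-#2 and was not called at -0.34 with shCTDP1-#1. With shCTDP1-#1 APAF1 fell by 0.26 and CASP10 rose by 0.63, and with shCTDP1-#2 they were not called at 0.09 and 0.20. CYCS, cytochrome c, was called at 0.09 with shCTDP1-#1 and 0.12 with shCTDP1-#2, and neither call held under upper-quartile or median-of-ratios scaling, where the value with shCTDP1-#2 was -0.033 under the last, or without the first shScr library.

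In the death receptor pathway, 1 of 7 tested genes rose with shCTDP1-#1 and none fell, and 4 rose and 1 fell with shCTDP1-#2. With shCTDP1-#2 the rises numbered 1 under either other scaling and 2 without the first shScr library, and 2 genes fell with shCTDP1-#1 under median-of-ratios scaling. The median was 0.12 with shCTDP1-#1 and 0.21 with shCTDP1-#2, and under median-of-ratios scaling 0.053 and 0.075. RIPK1, the kinase that BIRC2 and BIRC3 ubiquitinate, rose by 0.65 with shCTDP1-#1 and 1.07 with shCTDP1-#2. FADD, the adaptor of CASP8, fell by 0.25 with shCTDP1-#2 and was not called at -0.09 with shCTDP1-#1, where median-of-ratios scaling gave -0.17 and a call. TNFRSF1A, a TNF receptor, was not called at 0.16 with shCTDP1-#1 and was called at 0.18 with shCTDP1-#2, a call lost under both other scalings and without the first shScr library.

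Genes of the DNA damage response rose in 6 of 9 tested genes with shCTDP1-#1 and in 8 of 9 with shCTDP1-#2, and 1 fell with each. The median was 0.47 with shCTDP1-#1 and 0.68 with shCTDP1-#2. CDKN1A, the cell cycle inhibitor p21, averaged 332 ± 4.8 TPM with shCTDP1-#1 and 497 ± 7.5 TPM with shCTDP1-#2, against 155 ± 7.6 TPM with shScr (SD, n = 3 each). SESN2, a stress-induced gene, rose by 1.28 with shCTDP1-#1 and 1.24 with shCTDP1-#2, and GADD45A by 0.69 and 0.68. FDXR, ZMAT3 and XPC rose by 0.47 to 0.92 with shCTDP1-#1 and by 0.52 to 0.85 with shCTDP1-#2. MDM2, a ubiquitin ligase, fell by 0.56 with shCTDP1-#1 and 0.58 with shCTDP1-#2.

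The stress-response transcription factors and their targets, some known to act on PMAIP1, BBC3 and BCL2L11, rose in 5 of 6 tested genes with shCTDP1-#1 and in 6 of 6 with shCTDP1-#2. Under median-of-ratios scaling 4 rose with either hairpin and 1 fell with shCTDP1-#1. Without the first shScr library 4 rose and 1 fell with shCTDP1-#1. The median was 0.57 with shCTDP1-#1 and 0.87 with shCTDP1-#2. ATF3 averaged 72.4 ± 2.4 TPM with shCTDP1-#1 and 90.6 ± 5.7 TPM with shCTDP1-#2, against 8.27 ± 1.2 TPM with shScr (SD, n = 3 each), at log2 changes of 2.99 and 3.31. DDIT3, which encodes CHOP, rose by 0.57 with shCTDP1-#1 and 1.17 with shCTDP1-#2, and CHAC1, a target of ATF4 and CHOP, by 1.04 and 1.32. FOXO3, a forkhead factor known to induce BCL2L11 and BBC3, rose by 0.56 with shCTDP1-#1 and 0.57 with shCTDP1-#2. ATF4 was called at 0.11 with shCTDP1-#1 and 0.13 with shCTDP1-#2, but neither call held under median-of-ratios scaling, where the value with shCTDP1-#2 was -0.020. The call with shCTDP1-#1 was also lost without the first shScr library, at 0.078, and that with shCTDP1-#2 under upper-quartile scaling, at 0.057.

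In the NF-kB pathway, where BIRC3 and BCL2A1 are known targets, 3 of 10 tested genes rose and 5 fell with shCTDP1-#1, and 3 rose and 4 fell with shCTDP1-#2. The median was -0.07 with either hairpin as deposited. Under median-of-ratios scaling it was -0.14 with shCTDP1-#1 and -0.22 with shCTDP1-#2, under upper-quartile scaling it was -0.14 with shCTDP1-#2, and 5 genes fell with shCTDP1-#2 under either. CXCL8, an inflammatory chemokine, fell to 79.9 ± 4.5 TPM with shCTDP1-#1 and 132 ± 8.4 TPM with shCTDP1-#2, against 396 ± 33 TPM with shScr (SD, n = 3 each). The NF-kB inhibitor NFKBIA fell by 0.24 with shCTDP1-#1 and 0.26 with shCTDP1-#2, and the adhesion gene ICAM1 by 0.44 and 0.56. The subunit RELA rose by 0.60 with shCTDP1-#1 and 0.27 with shCTDP1-#2, and TRAF1, an NF-kB target whose protein binds BIRC2 and BIRC3, by 0.82 and 0.44.

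All 10 tested genes of mitosis and the chromosomal passenger complex, in which BIRC5 acts, fell with either hairpin, except that MKI67 with shCTDP1-#2 was not called without the first shScr library (-0.52, adjusted p = 0.052). The passenger subunits INCENP, CDCA8 and AURKB fell by 0.74, 1.26 and 0.62 with shCTDP1-#1 and by 0.67, 0.94 and 0.64 with shCTDP1-#2, beside 0.68 and 0.60 for BIRC5. The other 7 were AURKA, PLK1, CDC20, CCNB1, TOP2A, MKI67 and CDK1, whose log2 changes ran from -2.26 for PLK1 to -0.47 for CDK1 with shCTDP1-#1 and from -1.48 for PLK1 to -0.44 for CDK1 with shCTDP1-#2. The median of the list was -1.28 with shCTDP1-#1 and -1.04 with shCTDP1-#2. Over all tested intervals it was 0.07 with shCTDP1-#1 and 0.13 with shCTDP1-#2.

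**Figure D4:**
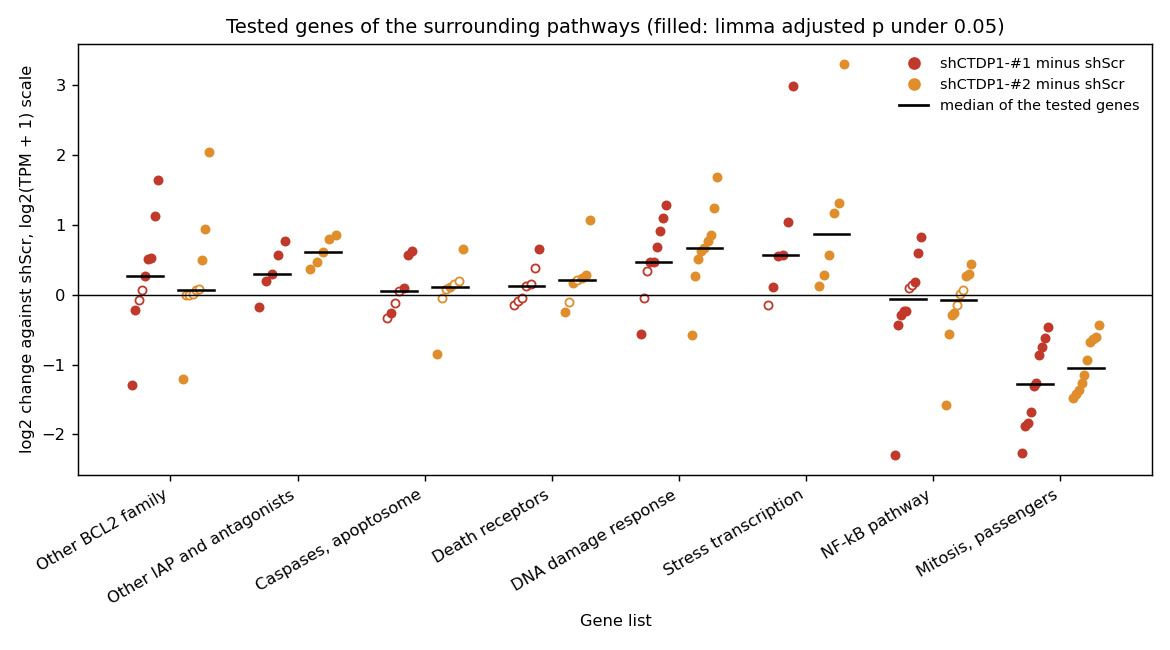
log2 change of each tested gene in 8 surrounding lists, for shCTDP1-#1 minus shScr and shCTDP1-#2 minus shScr, with a black bar at the median of each list. Filled points have a limma adjusted p under 0.05. The mitosis list lies below 0 throughout, and the NF-kB list spreads to both sides, with CXCL8 lowest.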

How the data were processed

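RNA from 9 libraries of MDA-MB-231 cells was analysed. Reads were processed with STAR and RSEM on hg19, versions not given, per the submitters' processing notes. The values the authors deposited are read as TPM because each library sums to this unit's fixed total. They have 2 decimals over 57773 rows. The 2246 rows that shared coordinates with another row were left out, which left 55527 intervals. Per the labels' protocols libraries were built with a TruSeq kit that does not keep strand, so overlapping and antisense genes cannot be told apart, and transcripts of a gene are summed. Genes other than the 10 described were matched to spans written from general knowledge, with overlap over union of at least 0.7, which 74 of 75 reached. CTDP1 and 7 markers of the line are among these 74. Some related genes are not reported here.

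log2(TPM + 1) was fitted with limma 3.58.1 (trend, robust) in R 4.3.3 for intervals of at least 1 TPM in at least 3 libraries, using 1 mean per group and all 9 libraries (6 residual df). P-values were adjusted by Benjamini-Hochberg over 15011 intervals, at a threshold of 0.05. Adding 1 TPM understates the change of low genes such as BCL2. The script was tested on simulated data with few changed intervals, in a single comparison and with no shift of scale. That test therefore does not bear on calls that depend on scaling. Ratios within a library had no pseudocount and an exact two-sided permutation test. Other list genes are named where called with both hairpins in the same direction or among the 2 highest of a list by mean level. XIAP, BID, CASP6, CASP10, APAF1, BOK, BCL2L12, FAS and CFLAR were added after their values were seen. The alternatives were another pseudocount, other filters, upper-quartile and median-of-ratios scaling, the 6 libraries compared alone, a replicate block, limma without trend and robust, and leaving out each library. The genes and lists were chosen with earlier results of these data known. Promoters are from RefSeq on GRCh38.p14, another build than that of the intervals.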

Additional observations from a re-analysis of the deposited data

Results flagged for a closer look

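The genes below are flagged because the effects of the CTDP1 hairpins differed by the test of shCTDP1-#2 against shCTDP1-#1 itself (limma adjusted p under 0.05). Outside the 10 genes, most are listed by the naming rule given above, which asks for calls in the same direction or a high level. That rule can leave out genes on which the hairpins disagreed, so those of the DNA damage, stress and NF-kB lists are not complete. Values are log2 differences, positive where shCTDP1-#2 was higher. Among the 10 genes described, BIRC3 differed by 1.65, BCL2 by 0.48, MCL1 by 0.32, PMAIP1 by -0.20, BCL2L11 by -0.44 and BAK1 by -0.56. CTDP1 itself differed by 0.44.

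Of the related cell death genes, XIAP differed by 0.98, RIPK1 by 0.42, BIK by 0.41, BIRC2 by 0.41, BNIP3 by 0.23, DIABLO by 0.17, FADD by -0.16 and HTRA2 by -0.19. Outside the naming rule, CFLAR differed by 0.39, APAF1 by 0.34, BID by 0.21, CASP10 by -0.44, BCL2L12 by -0.45, FAS by -0.48, BOK by -0.50 and CASP6 by -0.51. FAS was near the limit (limma adjusted p = 0.049), and BID was not called under upper-quartile scaling. The differences of DIABLO and BNIP3 were not called under median-of-ratios scaling, nor that of DIABLO under upper-quartile scaling. Of the DNA damage response, CDKN1A differed by 0.58, ZMAT3 by 0.38 and FDXR by -0.30. Of the stress and NF-kB lists, CXCL8 differed by 0.72, DDIT3 by 0.60, ATF3 by 0.32, RELA by -0.33 and TRAF1 by -0.38. Of the mitosis list, PLK1 differed by 0.78, AURKA by 0.58, TOP2A by 0.52, CDCA8 by 0.32, CCNB1 by 0.26 and CDC20 by 0.15, the last not called under either other scaling. These differences run in both directions, but their sign does not tell which hairpin lay farther from shScr. BIRC3 at 1.65 and BCL2L11 at -0.44 both lay farther with shCTDP1-#1, while XIAP and CDKN1A lay farther with shCTDP1-#2. The part of the CTDP1 level in these differences was not tested.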

How the results depend on the processing

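Of 357 values recomputed with every library kept, 346 were taken as unchanged, as were 452 of 459 with a library left out. A gene was unchanged if its call and direction held, and a change of direction with no call in either fit also passed. Counts of genes and intervals are among these values, as are within-library ratios where a library was left out. Those were judged only by the size of their shift. Median-of-ratios scaling moved the median log2 change with shCTDP1-#2 to -0.00, against 0.13 as deposited, and gave 4605 intervals higher and 4832 lower, against 5923 and 3689 as deposited (5296 and 4216 under upper-quartile scaling). With shCTDP1-#2, MCL1 was 0.044 under upper-quartile and -0.032 under median-of-ratios scaling, BAX 0.14 and 0.062, and BCL2 -0.32 and -0.39, so that 2 of the 10 genes were lower under either, against 1 as deposited. Without trend and robust, BCL2 was called at -0.27, which also made 2 lower. With the filter at 5 TPM, BCL2 was not tested, and BAX with shCTDP1-#1 was called at 0.16 (adjusted p = 0.0499). Leaving out a library in turn, BAX ranged over 0.11 to 0.23 with shCTDP1-#1, where it was called without the second shScr library (0.23) or the second shCTDP1-#2 library (0.16), and over 0.17 to 0.29 with shCTDP1-#2. It lost its call with shCTDP1-#2 without the first (0.18) or the third (0.17) shScr library or the first (0.18) or the third (0.19) shCTDP1-#2 library. BAK1 with shCTDP1-#2 ranged over 0.050 to 0.14, called without the second shScr library.

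Same-numbered libraries of different groups had residual correlations of -0.01 to 0.05, against -0.046 to 0.024 for libraries of different numbers. On average 9 of 9 libraries correlated best with their own number, so pairing by number cannot be set aside. The main fit did not take the numbers as pairs. With a replicate block, 45 of 45 values, counts of genes and intervals included, were unchanged by the rules given above. The counts were 5279 higher and 4114 lower with shCTDP1-#1, and 5881 higher and 3636 lower with shCTDP1-#2. Depth is unknown, which limits what can be said of low genes such as BCL2. Why values moved with scaling was not tested.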
